A study of Homo sapiens with 6 samples.

Results

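Metallothioneins are small cysteine-rich proteins that bind zinc and copper, and 9 genes of this system were read in Ishikawa cells, a human endometrial adenocarcinoma line that responds to estrogen. They are the metallothionein genes MT2A, MT1X, MT1E, MT1F, MT1G, MT1H and MT1M, the zinc sensor MTF1, and the zinc exporter SLC30A1. The 9 were picked by gene symbol from the 26364 genes of the count table. Of the 9, 6 had counts and passed the filter on low counts, as did 15611 of all genes, while MT1E, MT1H and MT1M had 0 counts in every library. Without estrogen the 4 detected metallothionein genes were at their highest in the parental line. 17β-estradiol (E2) was followed by lower levels of all 4 in each of 3 lines, a direction shared by 25.1% of tested genes. Of the 4, MT2A alone passed the test (log2 difference -0.87, SE 0.13, edgeR quasi-likelihood test, adjusted p = 0.0374). The test called 1.13% of tested genes. The MT2A call was lost in most fits that left out 1 library, and with total-count scaling. SLC30A1 and MTF1 were higher with E2 in each line, as were 27.8% of tested genes, without passing the test.

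The study asked what loss of ETV4, a transcription factor of the ETS family, changes in gene expression, and used 6 poly(A)-selected RNA-seq libraries. The parental line (labelled WT) gave 1 library with 0.1% DMSO, the vehicle, and 1 with 10 nM E2. Each of 2 ETV4 knockout clones also gave 1 library with DMSO and 1 with E2, so each knockout group has n = 2 clones and each parental group n = 1. All lines had been moved to hormone-depleted medium before treatment. The labels give the treatment time as 8 h in the protocols and as 1 h in the sample characteristics, so the time is uncertain. Each knockout line is 1 clone, and with 1 parental line the genotype and the line cannot be told apart. The labels do not say that libraries came from separate experiments, and the p-values measure only the spread between these libraries.

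Metallothioneins buffer free zinc and copper in the cytosol and are among the strongest zinc-induced genes. Zinc binds the zinc-finger factor MTF1, which then moves to metal response elements (MREs), short motifs in the promoters of metallothionein genes and of SLC30A1, and raises their transcription. SLC30A1 pumps zinc out of the cell at the plasma membrane, so both arms of the response lower free zinc. Glucocorticoids, oxidants and progestins are other known inducers of metallothioneins, and the endometrium is one of the tissues in which these genes follow the hormonal cycle.

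Promoter sequences were searched for the core letters of the MRE. RefSeq promoter windows (build GRCh38.p14, 250 bases before to 50 after the annotated start, 300 in all) were matched by symbol for 5 of the 9 genes, MT2A, MT1X, MT1H, MTF1 and SLC30A1. The 250 bases before the start are printed for 3 metallothionein genes, of which MT2A and MT1X were detected and MT1H was not, and for SLC30A1. Each is written 5′ to 3′ on the strand of its gene, with capitals marking every match to the MRE core on either strand. The core was searched as TGCACNC or TGCGCNC, where N is any base, and none of the matches overlapped another.
MT2A: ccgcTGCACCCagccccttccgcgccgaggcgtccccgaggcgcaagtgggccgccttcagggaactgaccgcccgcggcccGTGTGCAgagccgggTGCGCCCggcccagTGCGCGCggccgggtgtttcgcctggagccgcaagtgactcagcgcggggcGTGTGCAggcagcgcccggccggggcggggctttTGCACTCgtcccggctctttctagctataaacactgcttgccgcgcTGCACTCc
MT1X: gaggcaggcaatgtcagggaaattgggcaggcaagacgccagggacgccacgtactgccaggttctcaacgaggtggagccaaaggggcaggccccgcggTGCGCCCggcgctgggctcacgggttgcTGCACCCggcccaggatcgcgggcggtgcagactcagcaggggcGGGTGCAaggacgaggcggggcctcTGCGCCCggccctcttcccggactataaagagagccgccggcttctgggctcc
MT1H: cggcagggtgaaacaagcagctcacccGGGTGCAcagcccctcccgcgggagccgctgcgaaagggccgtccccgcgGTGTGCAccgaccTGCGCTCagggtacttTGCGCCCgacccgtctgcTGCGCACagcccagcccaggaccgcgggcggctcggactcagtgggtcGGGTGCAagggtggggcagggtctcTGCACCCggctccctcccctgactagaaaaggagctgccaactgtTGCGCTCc
SLC30A1: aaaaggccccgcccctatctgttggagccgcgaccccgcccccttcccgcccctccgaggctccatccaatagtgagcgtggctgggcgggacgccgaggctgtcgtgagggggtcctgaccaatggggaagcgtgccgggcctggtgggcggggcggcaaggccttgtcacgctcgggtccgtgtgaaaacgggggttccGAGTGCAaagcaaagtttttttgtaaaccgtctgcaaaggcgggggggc

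The printed stretches lie at chr16:56608334-56608583 (MT2A, plus strand), chr16:56682220-56682469 (MT1X, plus strand), chr16:56669564-56669813 (MT1H, plus strand) and chr1:211579162-211579411 (SLC30A1, minus strand). Over the whole 300-base window MT2A had 8 core matches, 5 on the strand of the gene and 3 on the other strand, with 7 of the 8 before the start. MT1H also had 8, all before the start. MT1X had 4, and SLC30A1 had 2, both on the opposite strand, at positions -49 and 25 from the start. The MTF1 window had none. Of 35116 RefSeq promoter windows of the same length, 29.6% held at least 1 core, 8.60% at least 2, 0.601% at least 4 and 0.0199%, which is 7 windows, at least 8. This share was not matched for base composition, and the 5 windows were 67% to 72% G and C. MT1H, which had no counts, and the most counted metallothionein gene, MT2A, had the same number of matches. An estrogen response element, searched as GGTCANNNTGACC, was absent from all 5 windows and present in 0.0570% of all windows. An ETS motif, searched as CGGAAGT on both strands, occurred once among the 5, at position -29 of MTF1, and in 6.83% of all windows. These are matches of letters, and no binding was measured.

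**Figure D1:**
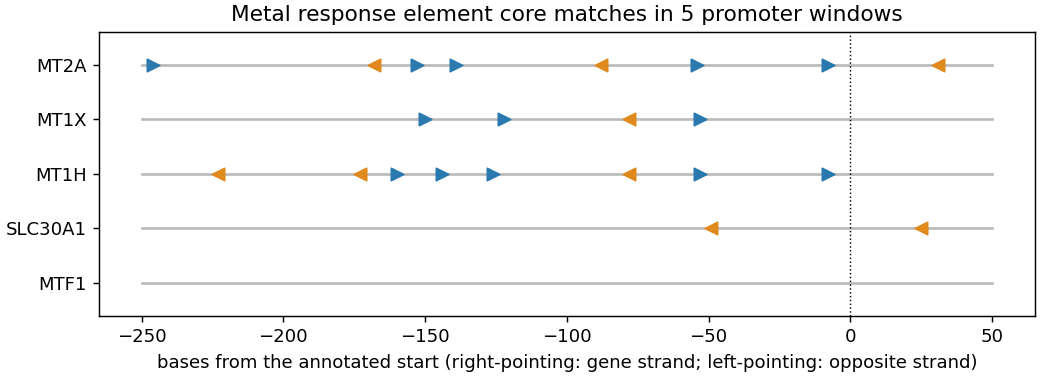
Position of each MRE core match (triangles, pointing right on the strand of the gene and left on the opposite strand) in the promoter windows of 5 genes, in bases from the annotated start (dotted line). MT2A and MT1H carry 8 matches each, MT1X 4, SLC30A1 2 and MTF1 none.

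Libraries held 28037392 to 36829479 counts. ETV4, the targeted gene, was at 19.7 CPM (a level per library size, TMM-scaled) in the parental line with DMSO and at 28.4 with E2, against 2.42 to 3.41 in the 4 clone libraries. It fell by 3.04 on the log2 scale (SE 0.21, edgeR quasi-likelihood test, adjusted p = 0.00868). All 7 markers of endometrial epithelium used here averaged over 2 CPM, with a summed level of 3193 to 3443 CPM in DMSO and 2492 to 2716 in E2. The 4 blood markers summed to at most 0.376 CPM, with CD3E and HBB at 0. The 3 endothelial markers summed to 1.61 to 3.96 CPM, nearly all of it VWF. The 7 stromal markers summed to 48.9 to 87.1 CPM, mostly the collagen gene COL1A1 (mean 56.7 CPM), while DCN, LUM and PDGFRB were near 0. The epithelial sum was thus lower in every E2 library than in any DMSO library. The detected metallothionein genes were lower with E2 within each line, though MT1X and MT1G overlapped between treatments. The part of the epithelial sum in their levels was not tested.

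MT1E, MT1H and MT1M had no counts. A count of 0 allows up to 0.0802 to 0.103 CPM of counted reads, depending on the library (3 counts, counting error only). How reads with several matches or over overlapping genes were counted, and whether strand was used, are not given in the sources used here, so these zeros limit the counts and not the expression of the genes, and their cause was not tested. Of the transcript sequence, 92.9% of the 50-base stretches of MT1E transcripts, 84.2% of those of MT1H and 90.1% of those of MT1M occur in no other gene of the GENCODE v29 transcripts. Among the detected genes MT1X is the least distinct, as 43.6% of its 50-base stretches also occur elsewhere, most of them in the annotated transcript AC026461.1, and 30.8% of its 100-base stretches do. For MT2A, MT1F and MT1G the shared part of 50-base stretches was 4.24%, 3.27% and 16.5%, and none of their 100-base stretches was shared. The split of reads between MT1X and the transcripts that share its sequence is therefore uncertain.

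Genes with and without counts alternated along the cluster. In RefSeq order on chromosome 16, MT3 (94 counts over the 6 libraries) and MT2A (3545) were followed by MT1L, MT1E, MT1M, MT1JP and MT1A, all at 0. Next came the pseudogene MT1DP with 31 counts and MT1B with 0, then MT1F (1159) and MT1G (471), MT1H and MT1IP at 0, and MT1X (2633) at the end. MT4, ahead of MT3, was also at 0. Counts therefore came from genes at several places in the cluster and not from 1 end of it.

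MT2A, the most widely expressed metallothionein gene, was at 33.1 CPM in the parental line with DMSO and 16.9 with E2. It was at 19.9 and 10.5 CPM in clone 1, and at 19.2 and 11.8 in clone 2. The 3 DMSO libraries were all above the 3 E2 libraries. E2 was followed by a 1.96-fold lower level in the parental line, a 1.90-fold lower level in clone 1 and a 1.63-fold lower level in clone 2, and the E2 to DMSO ratios had 95% counting intervals of 0.462 to 0.565, 0.458 to 0.602 and 0.536 to 0.704. Mean log2 change over the 3 lines was -0.86 ± 0.144 (SD, n = 3). In bulk RNA, fewer cells making a transcript and less of it per cell cannot be told apart.

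MT1X, another zinc-inducible isoform, was at 24.6 CPM with DMSO and 14.4 with E2 in the parental line. It was at 16.7 and 7.16 CPM in clone 1, and at 11.0 and 7.93 in clone 2. The treatments overlapped, since the parental E2 library was above the DMSO library of clone 2. Of the metallothionein genes MT1X differed most between the clones, with an E2 to DMSO ratio of 0.430 (95% counting interval 0.366 to 0.504) in clone 1 and 0.719 (0.604 to 0.853) in clone 2. Its log2 change was -0.82 ± 0.371 (SD, n = 3) and did not pass the test (edgeR quasi-likelihood, adjusted p = 0.103).

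MT1F was at 12.2 CPM with DMSO and 5.18 with E2 in the parental line, at 6.31 and 3.56 in clone 1, and at 5.43 and 3.83 in clone 2. All E2 libraries were below all DMSO libraries. The ratio of E2 to DMSO was lowest in the parental line, 0.424 (95% counting interval 0.354 to 0.506), and was 0.565 and 0.705 in the clones. The fitted log2 difference was -0.86 (SE 0.20, edgeR quasi-likelihood test, adjusted p = 0.111).

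MT1G, the least counted of the 4, was at 4.98 CPM with DMSO and 2.32 with E2 in the parental line, from 148 and 87 counts. It was at 2.26 and 1.71 CPM in clone 1, and at 1.98 and 1.61 in clone 2, where 47 to 81 counts stood behind each value. The parental E2 library was above every clone library, with DMSO or E2. The parental ratio was 0.467 (95% counting interval 0.354 to 0.613), while the intervals of both clones, 0.522 to 1.09 and 0.540 to 1.21, include no change. The log2 difference of -0.61 (SE 0.26) did not pass the test (edgeR quasi-likelihood, adjusted p = 0.242). It became -0.37 without the parental DMSO library, -0.35 without the parental E2 library and -0.38 with a correction for GC content and length. The same correction took MT2A from -0.87 to -0.74, MT1X from -0.84 to -0.57 and MT1F from -0.86 to -0.68.

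Summed over the metallothionein genes, the level was 75.0 CPM in the parental line with DMSO and 38.8 with E2. It was 45.1 and 22.9 CPM in clone 1, and 37.7 and 25.2 in clone 2. The sum was 1.93-fold lower with E2 in the parental line, 1.97-fold lower in clone 1 and 1.50-fold lower in clone 2. Ordered by group, the parental line with DMSO was highest, then the clones with DMSO (41.4 ± 5.28, SD, n = 2), the parental line with E2 (38.8) and the clones with E2 (24.0 ± 1.61, SD, n = 2). The middle pair differed by less than the SD between the clones. The make-up of the sum moved little, with MT2A giving 43.6% to 51.0% of its counts, MT1X 29.3% to 37.1%, MT1F 13.4% to 16.3% and MT1G 5.01% to 7.49%. These shares are of counts, with no correction for transcript length.

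**Figure D2:**
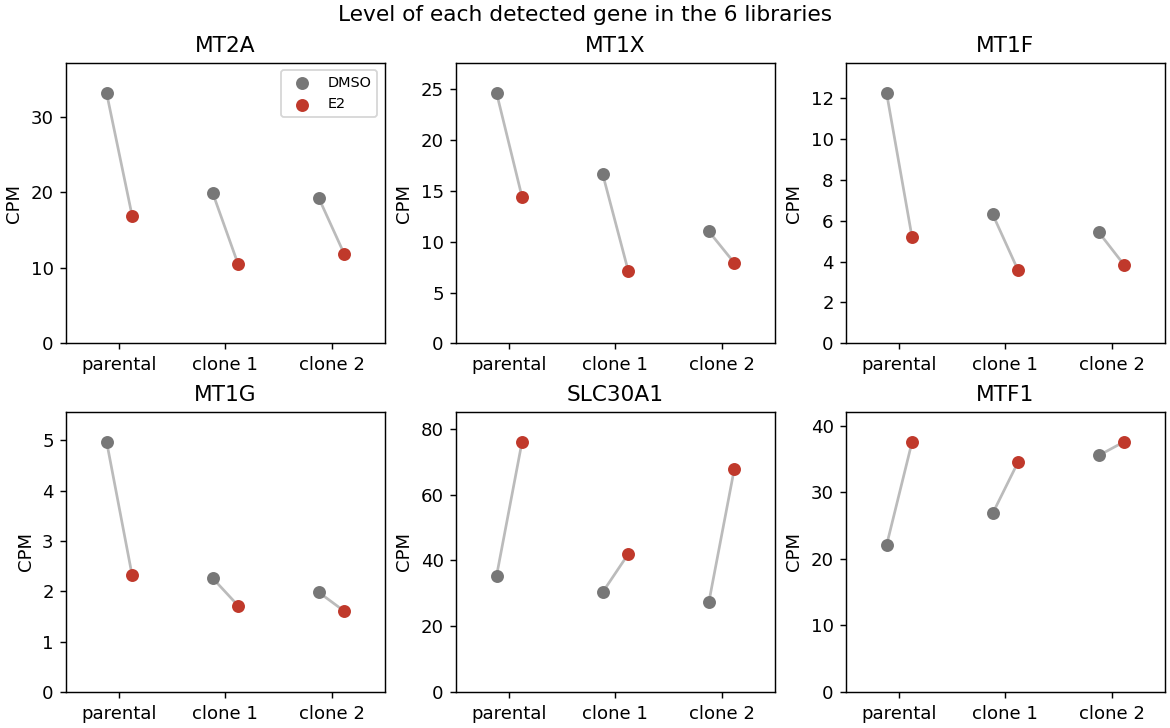
CPM of the 6 detected genes with DMSO (grey) and E2 (red), 1 point per library, with a line joining the libraries of the same cell line. The 4 metallothionein genes are lower and SLC30A1 and MTF1 higher with E2 in every line.

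SLC30A1, the exporter, moved against the metallothioneins under E2. It was at 35.4 CPM with DMSO and 76.1 with E2 in the parental line, at 30.3 and 41.9 in clone 1, and at 27.2 and 67.7 in clone 2. Every E2 library was above every DMSO library. The ratio was 2.15 (95% counting interval 2.00 to 2.31) in the parental line, 1.38 (1.27 to 1.50) in clone 1 and 2.49 (2.29 to 2.70) in clone 2, so clone 1 stood below the other lines beyond counting error. The mean log2 change was 0.96 ± 0.442 (SD, n = 3), and the difference missed the threshold (edgeR quasi-likelihood test, adjusted p = 0.0772).

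MTF1, the sensor, was at 22.1 CPM with DMSO and 37.5 with E2 in the parental line, at 26.8 and 34.6 in clone 1, and at 35.5 and 37.6 in clone 2. The E2 libraries lay close together, while the DMSO libraries were spread, and the DMSO library of clone 2 was above the E2 library of clone 1. Its ratio was 1.70 in the parental line and 1.29 in clone 1. In clone 2 the ratio was 1.06 with a counting interval of 0.971 to 1.15, which includes no change. The log2 difference was 0.40 (SE 0.17, edgeR quasi-likelihood test, adjusted p = 0.258). It became 0.19 without the parental DMSO library, 0.21 without the parental E2 library and 0.26 with the GC and length correction.

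**Figure D3:**
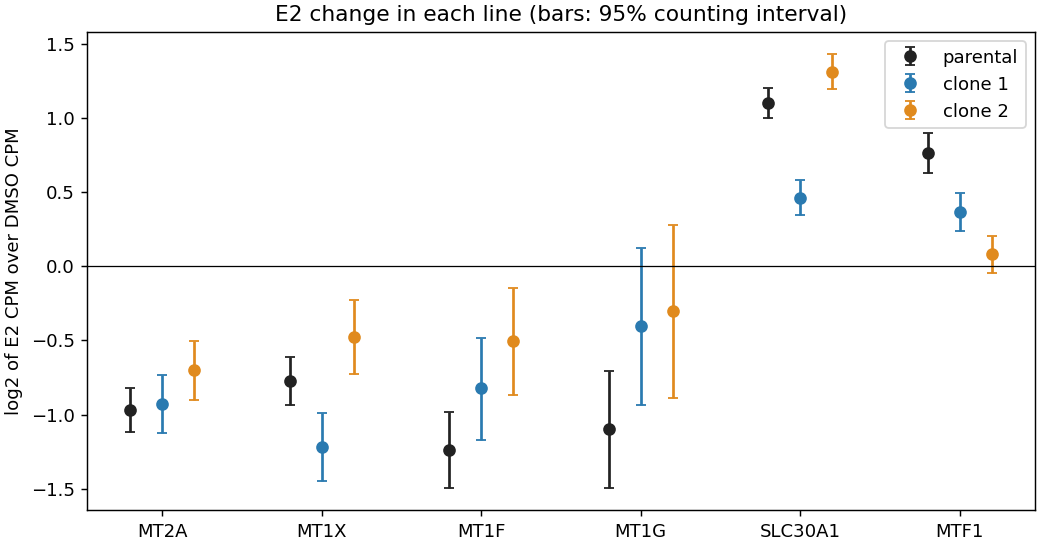
log2 of the E2 CPM over the DMSO CPM for each gene in the parental line (black), clone 1 (blue) and clone 2 (orange), with 95% counting intervals as bars. The 12 points of the metallothionein genes lie below 0, and the intervals of MT1G in both clones and of MTF1 in clone 2 cross it.

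Read against all tested genes, these directions were common. E2 was below DMSO in all 3 lines for 4 of the 6 detected genes and for 25.1% of all tested genes, and above it for the other 2 and for 27.8%. All E2 libraries were below all DMSO libraries for MT2A and MT1F and for 10.7% of tested genes, and above them for SLC30A1 and for 13.5%. The edgeR quasi-likelihood test with Benjamini-Hochberg adjustment called 1 of the 6 genes at an adjusted p of 0.05, MT2A, and 1.13% of tested genes. With line as a replicate block it called 2.46% of tested genes (384 against 176), MT2A among them (log2 difference -0.87, adjusted p = 0.0277), and none of the other 5. The MT2A call depended on the libraries: it was lost without any 1 of the 5 libraries other than clone 2 with DMSO (adjusted p from 0.0898 to 0.215), without clone 1 (0.0526) or the parental line (0.214), and with total counts in place of TMM scaling (0.0566). Without clone 2, or without its DMSO library alone, 5 of the 6 genes were called, all except MT1G, where 21.6% and 10.9% of tested genes were called. SLC30A1 was also called without clone 1 (log2 difference 1.19, adjusted p = 0.00280, with 4.83% of tested genes called) and without the E2 library of that clone (1.18, adjusted p = 0.0158, with 1.33% called). The fits without a clone have 1 residual degree of freedom.

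Loss of ETV4 was measured as the clones against the parental line, with treatment in the model. This fit treated the DMSO and E2 libraries of a line as independent, although they share 1 line. All 4 detected metallothionein genes and SLC30A1 had lower levels in each clone than the parental line had under the same treatment, which held for 16% of tested genes. None of the 6 passed the edgeR quasi-likelihood test, which called 0.327% of tested genes (51), ETV4 among them. With DMSO, the clones held 59.1% ± 1.44 of the parental level of MT2A, 56.2% ± 16.2 of that of MT1X, 48.0% ± 5.08 of that of MT1F and 42.6% ± 3.98 of that of MT1G (SD, n = 2 clones). With E2 the shares were 65.8% ± 5.71, 52.4% ± 3.74, 71.3% ± 3.57 and 71.4% ± 3.29 in the same order. Here and below, each share divides by 1 parental library, so its SD holds the spread between clones and no error of the parental value.

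The fitted knockout differences on the log2 scale were -0.68 (SE 0.13) for MT2A, -0.88 (SE 0.19) for MT1X, -0.79 (SE 0.21) for MT1F and -0.88 (SE 0.26) for MT1G. Adjusted p-values were 0.135, 0.181, 0.248 and 0.304 by the edgeR quasi-likelihood test. With line as a random effect (limma-voom) the adjusted p-values were 0.184, 0.245, 0.304 and 0.365 in the same order. Without the parental DMSO library the differences were -0.50 for MT1F and -0.49 for MT1G. With the GC and length correction they were -0.45, -0.58, -0.52 and -0.56 in the order of the 4 genes. MT1G was the 1 gene of the 6 with all 4 clone libraries below both parental libraries, a pattern of 7.82% of tested genes. The margin was small, 2.32 CPM (87 counts) in the parental line with E2 against 2.26 (81 counts) in clone 1 with DMSO. For MT2A, MT1X and MT1F the DMSO libraries of at least 1 clone exceeded the parental E2 library. Without clone 2 the knockout difference of MT2A was -0.72 (adjusted p = 0.00619), that of MT1X -0.78 (0.00326) and that of MT1F -0.76 (0.0315), all 3 past the threshold, and without clone 1 that of MT1X alone was (-1.03, 0.0170). These fits have 1 residual degree of freedom and called 6.41% and 4.09% of tested genes.

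SLC30A1 and MTF1 were not called between the genotypes either. SLC30A1 was at 81.4% ± 6.25 of its parental level in the clones with DMSO and at 72.0% ± 24.0 with E2 (SD, n = 2), and the fitted difference was -0.39 (SE 0.20, edgeR quasi-likelihood test, adjusted p = 0.487). MTF1 was at 141% ± 27.9 of its parental level with DMSO and at 96.1% ± 5.71 with E2, with a fitted difference of 0.21 (SE 0.19, edgeR quasi-likelihood test, adjusted p = 0.625). The direction for MTF1 turned to -0.067 without the parental DMSO library, so it rested on that library, and the value was 0.50 without the parental E2 library, 0.084 without the DMSO library of clone 2 and 0.046 with the GC and length correction. For SLC30A1 it was -0.24 without the E2 library of clone 1. None of these tests compared 1 gene with another.

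Whether E2 acted differently in the clones was tested by the interaction of E2 with genotype. None of the 6 genes passed, and 0% of tested genes did in the edgeR quasi-likelihood test (0 called, 1190 at an unadjusted p under 0.05, 29 called by DESeq2). The differences in E2 effect, clones minus parental line, were 0.16 (SE 0.29) for MT2A, -0.10 (SE 0.42) for MT1X, 0.57 (SE 0.40) for MT1F and 0.74 (SE 0.50) for MT1G on the log2 scale. They were -0.18 (SE 0.41) for SLC30A1 and -0.56 (SE 0.31) for MTF1. With the GC and length correction they were 0.078 for MT1F, 0.15 for MT1G and -0.27 for MTF1, -0.24 for MT2A and -0.79 for MT1X. The lowest adjusted p among the 6 was 0.621, for MTF1. With line as a replicate block, 15.8% of tested genes were called, on 1 residual degree of freedom. Again none of the 6 was called, the lowest adjusted p being 0.0676 for MTF1. Block and GC and length correction together called 1794 of 15611 tested genes, also on 1 residual degree of freedom. MT1X (-0.78) was the 1 of the 6 called there. The size of the E2 effect on MT1F, MT1G and MTF1 therefore could not be shown to depend on genotype, and errors of this size leave room for differences as large as the E2 effects themselves.

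The clones were also set against each other, clone 2 minus clone 1. The differences on the log2 scale were 0.06 (SE 0.15) for MT2A, -0.24 (SE 0.21) for MT1X, -0.06 (SE 0.24) for MT1F, -0.14 (SE 0.29) for MT1G, 0.26 (SE 0.22) for SLC30A1 and 0.27 (SE 0.19) for MTF1. None passed the edgeR quasi-likelihood test, which called 0.871% of tested genes. The MTF1 value ran from 0.018 without the DMSO library of clone 2 to 0.50 without the E2 library of that clone.

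**Figure D4:**
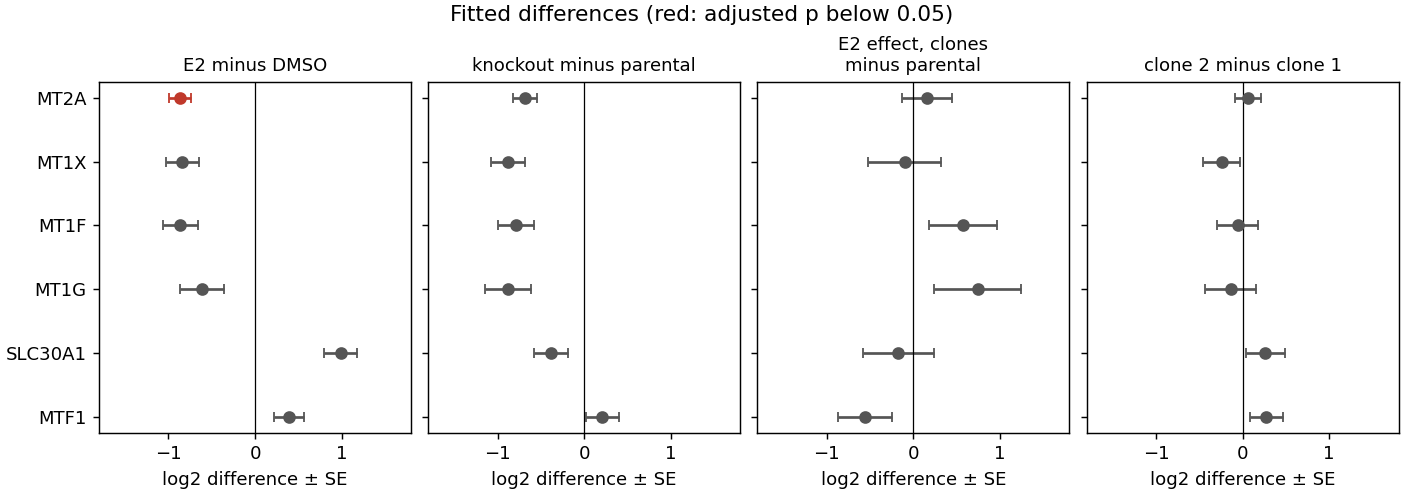
Fitted log2 differences with their SE for the 6 detected genes in 4 comparisons, on a common axis, with red for an adjusted p below 0.05. MT2A under E2 is the 1 red point, and the knockout differences of the 4 metallothionein genes all lie below 0.

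Other genes of metal handling and of the pathways that induce metallothioneins were read from 7 lists. None of their tested genes was called by the edgeR quasi-likelihood test in the E2, knockout, interaction or clone comparison. Among 11 further metallothionein genes and pseudogenes 9 were in the table, 6 of these had no counts and 1, MT3, was tested. MT3, an isoform best known from brain, had 9 to 22 counts per library and an E2 difference of -0.46 (SE 0.51). The other 7 tested genes of the SLC30 family of zinc transporters had a median E2 difference of -0.04 on the log2 scale, against -0.02 over all tested genes. The 2 with the highest mean CPM, SLC30A9 and SLC30A5, were at -0.20 and 0.08, and the 7 ranged from -1.24 to 0.15, against 0.99 for SLC30A1. SLC30A2, which loads zinc into vesicles, had a mean of 1.42 CPM and an E2 difference of -1.24 (SE 0.32, edgeR quasi-likelihood test, adjusted p = 0.132); it was singled out after its values were seen.

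Zinc importers of the SLC39 family, 11 tested, had a median E2 difference of -0.02 and a median knockout difference of -0.07. SLC39A8, which carries zinc and manganese into the cell, was the most abundant of them by CPM. It was at 307 CPM with DMSO and 341 with E2 in the parental line, at 756 and 869 in clone 1, and at 541 and 607 in clone 2. The knockout difference of 1.10 (SE 0.22) did not pass the edgeR quasi-likelihood test (adjusted p = 0.140). SLC39A9, the second by CPM, had a knockout difference of -0.07. The copper genes, 9 tested, had a median of -0.15 under E2 and -0.22 in the knockout, where the median of all tested genes was 0.01. Copper-zinc superoxide dismutase SOD1 and the copper importer SLC31A1 had E2 differences of -0.23 each.

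Targets of NRF2, the oxidant-responsive factor, were the next list. Of 10 tested, 9 had a negative knockout difference, with a median of -0.34, against 0.01 over all tested genes. Of the 10, 7 were below the parental line in both clones with either treatment, against the 16% of tested genes given above, and none was called. NQO1, a quinone reductase, was at 529 CPM with DMSO and 283 with E2 in the parental line, at 303 and 203 in clone 1, and at 249 and 204 in clone 2. It was thus lower with E2 in each line and lower in both clones, as the metallothioneins were, with an E2 difference of -0.60 (adjusted p = 0.138) and a knockout difference of -0.71 (adjusted p = 0.187, edgeR quasi-likelihood test). The thioredoxin reductase gene TXNRD1 was at -0.18 under E2 and -0.27 in the knockout. The NRF2 list as a whole had a median E2 difference of 0.06.

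Heat shock genes, 8 tested, and genes that respond to glucocorticoids and progestins, 9 tested, had median E2 differences of 0.24 and 0.23. The heat shock genes ranged from -0.14 to 0.88 under E2. BAG3 was the highest of them (SE 0.17, edgeR quasi-likelihood test, adjusted p = 0.0772). The chaperones HSPA8 and HSP90AA1 were at 0.19 and 0.29, the FK506-binding protein gene FKBP5 at 0.23 and the glucocorticoid receptor NR3C1 at -0.29. With the replicate block 1 of these genes was called under E2, the glucocorticoid-induced TSC22D3 (log2 difference -0.98, adjusted p = 0.0277, edgeR quasi-likelihood test with block, against 0.130 without it). That block fit called 2.46% of all tested genes. For the interaction, the block fit has 1 residual degree of freedom and called 15.8% of all tested genes and 7 listed ones. Of 9 copper genes tested, 4 were called, COMMD1 (1.28), COX17 (0.74), ATOX1 (0.60) and ATP7B (-0.68). Thioredoxin TXN (0.74) was called of 10 NRF2 targets, the clock gene PER1 (-0.76) of 9 glucocorticoid and progestin genes, and the co-chaperone BAG3 (-0.66) of 8 heat shock genes. None was called of the 7 SLC30 genes, the 11 SLC39 genes and MT3.

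**Figure D5:**
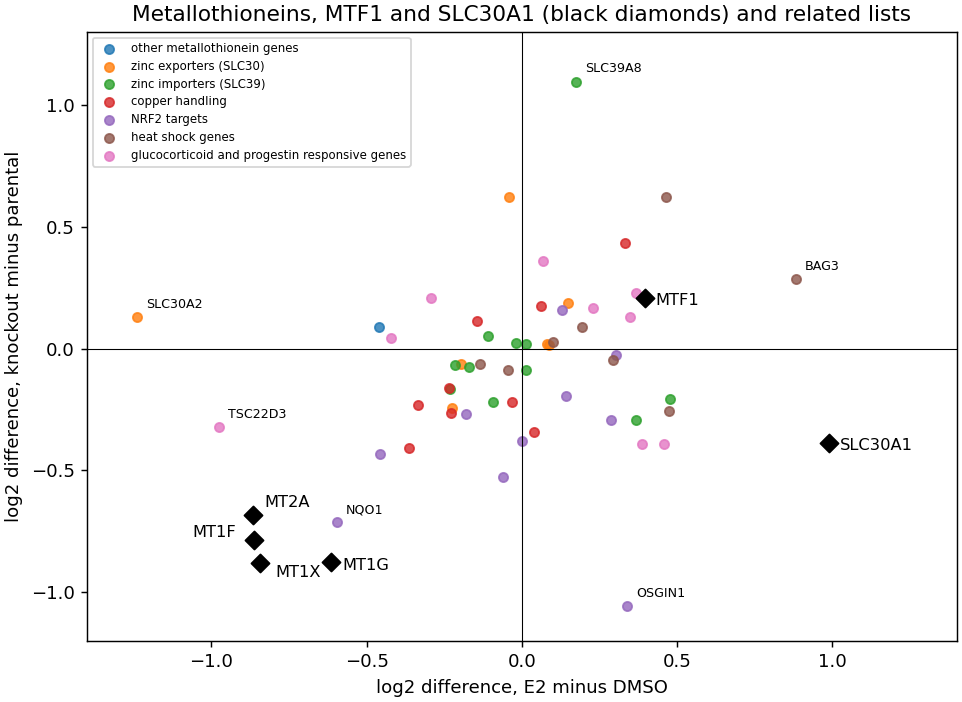
log2 difference with E2 (horizontal) against log2 difference of knockout from parental (vertical) for the detected genes (black diamonds) and the tested genes of 7 lists (coloured points). The 4 metallothionein genes lie together at the lower left near NQO1, SLC30A1 lies far to the right and MTF1 at the upper right; both axes come from the same 6 libraries.

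The genes most like the metallothioneins over the 6 libraries were found by Pearson's r between log2 CPM and the log2 of the summed metallothionein CPM, among the 12361 genes that averaged 2 CPM or more. The highest were PIGT, of the enzyme complex that attaches GPI anchors (r = 0.999), KBTBD4 (0.997), PRR15L (0.996), S100A10, the partner of annexin A2 (0.996), and LGMN, a lysosomal protease (0.995). S100A10 was at 342 CPM with DMSO and 188 with E2 in the parental line, at 218 and 131 in clone 1, and at 191 and 144 in clone 2. The most opposed were TTC37 (-0.998), the tissue factor gene F3 (-0.996), CLOCK (-0.994), the adhesion gene NRCAM (-0.993) and ARFGAP3 (-0.991). MT2A, MT1F, MT1X and MT1G, which are parts of the sum, had r of 0.991, 0.986, 0.981 and 0.936, while MTF1 had -0.83 and SLC30A1 -0.39. With 6 points that share treatments and lines, 7.5% of the compared genes had an r of at least 0.9 in size, so these values describe the libraries and carry no test.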

How the data were processed

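Ishikawa RNA-seq counts were used from 6 libraries in 4 groups of genotype and treatment. The authors deposited raw whole-number counts per gene, and a normalized signal per gene that equals the raw count divided by a factor per library (0.926 to 1.19). Per the submitters' processing notes, HISAT2, SAMtools, Subread and DESeq2 were used with build hg19; versions, annotation, strand use and the handling of reads with several matches are not given in the sources used here. Column names write DMOS and ER, read as DMSO and E2.

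The filterByExpr function kept 15611 of 26364 genes, and counts were scaled by TMM and tested with edgeR 4.0.16 (quasi-likelihood, R 4.3.3), adjusted by Benjamini-Hochberg over all tested genes at 0.05. Models held treatment and genotype for the E2 and knockout effects, their interaction, or line and treatment for the clone difference. SE is the log2 difference over the square root of F. Ratios within a line have exact binomial 95% counting intervals, and log2 ratios used a prior count of 2. The code was tested on simulated data. Libraries pair by line, per the labels. The difference between the clones correlated at 0.626 between treatments over 15611 genes, and the clones differed beyond sampling noise (chi-square of 72.2 per gene in DMSO). Line was therefore also fitted as a replicate block, as a random effect with limma 3.58.1 for the knockout.

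The genes and lists were chosen with earlier results of these data known. Named were all 9 genes, ETV4, from each list the called genes or else the 2 highest in mean CPM, and the 5 genes most like and most unlike the metallothionein sum; others are named where the block called them or as said. Alternatives were median-ratio and total-count scaling, no filter, at least 10 counts, DESeq2 1.42.0, limma-voom, the block, other prior counts, each library or line left out, and a GC and length correction (93.6% of tested genes had values). Chosen after seeing the data were the correction for the knockout, the clone difference and the unblocked interaction, the correction with block for E2, the clone difference without the parental line and the interaction without each clone.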

Additional observations from a re-analysis of the deposited data

How the results depend on the processing

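The E2 direction of all 6 detected genes held in all 18 alternatives, and the change of each gene within each line kept its sign in all 54. The number of genes called for E2 (176) was 1115 with DESeq2, 384 with the replicate block, 409 with the GC and length correction, 1718 with that correction and the block, 745 without clone 1, 3353 without clone 2, 49 without the parental line and 40 to 1704 with 1 library left out. Of the 6 genes (1 called), 0 were called with total-count scaling or without the parental line, 4 with DESeq2 (MT2A, MT1X, MT1F and SLC30A1), 3 with correction and block, 5 without clone 2 and 0 to 5 with 1 library left out. Knockout calls (51) were 454 with DESeq2, 112 with the correction, 631 without clone 1, 996 without clone 2 and 1 to 99 with 1 library left out. Among the 6 genes (0) they were 2 with DESeq2 (MT2A and MT1X). Without a clone each genotype is 1 line, so the knockout calls of those fits have no replicate of genotype. The MTF1 knockout difference ran from -0.067 to 0.50 with 1 library left out. Interaction calls (0) were 29 with DESeq2, 2470 with the replicate block, 1794 with correction and block and 0 to 38 with 1 library left out. With correction and block 1 of the 6 genes was called, MT1X (-0.78, adjusted p = 0.00657). The interaction of MT2A turned to -0.030 with total-count scaling, which moved the median of all genes from -0.037 to -0.22, and to -0.24 with the GC and length correction, with or without the block. With 1 library left out it ran from -0.37 to 0.20 for MT1X and from -0.57 to 0.13 for SLC30A1, and without clone 1 these were 0.31 and 0.22. Clone difference calls (136) were 236 with no filter, 63 with at least 10 counts, 369 with DESeq2, 351 with the correction, 2723 without the parental line and 174 to 2754 with 1 library left out, and none of the 6 genes was called in these. With 1 library left out the clone difference ran from -0.059 to 0.19 for MT2A, -0.52 to 0.072 for MT1X, -0.32 to 0.22 for MT1F, -0.37 to 0.10 for MT1G, 0.018 to 0.50 for MTF1 and -0.10 to 0.64 for SLC30A1. The cause of these changes was not tested. A lone library left in a group is assumed to vary like the other groups. The interaction without a parental library was not run, as it cannot be estimated. The block changed no other call on the 6 genes. Depth limits MT1G most, at 47 to 148 counts.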
